A study of Mus musculus with 6 samples.

Results

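Small nucleolar RNAs (snoRNAs) were counted in small RNA libraries of primary mouse peritubular myoid cells, the contractile cells that wrap the seminiferous tubules. The table typed 352 of its 61628 rows as snoRNA. Of these, 141 rows with at least 30 tags summed over all 6 libraries are described here, chosen by that sum of counts, while 211 fell below that sum, and 80 of the 211 held no tag. The sum pooled both groups and did not use the difference between them. By the names in the table, 75 of the 141 were SNORD families (C/D box), 33 were SNORA families (H/ACA box), 11 were Cajal body RNAs, and 22 carried other names such as U3, U13 or U85. Each row is an Rfam family, which can cover several mouse genes, and a tag is a fragment sequenced in a small RNA library, not a whole snoRNA. The cells came from C57BL/6J mice and were cultured in serum. They were either untreated (3 libraries) or exposed for 5 min to 50 nM endothelin-1 (ET1), a vasoactive peptide that makes smooth muscle contract (3 libraries). Whether the libraries of a group were separate cultures or animals is not given in the labels, and p-values therefore reflect library-to-library spread, which may be technical. Levels are given as RPM, meaning tags of a family per 1000000 tags of all kinds in a library.

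As background, C/D box snoRNAs sit with fibrillarin in the nucleolus and guide ribose methylation of ribosomal RNA, while H/ACA box snoRNAs sit with dyskerin and guide conversion of uridine to pseudouridine. Small Cajal body RNAs guide the same changes on spliceosomal RNAs. A few snoRNAs, among them U3, U14 (SNORD14), U13 and U17 (SNORA73), take part in the cleavage or folding of the ribosomal precursor. Most vertebrate snoRNAs are cut out of introns of host genes, many of which encode ribosomal proteins or nucleolar proteins.

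The sequences that follow are those of genes in 5 of the 6 families with the most tags (SNORD14, SNORD99, SNORD50, SNORD57, SNORD23), SNORD62 having no match by symbol, of families discussed below for their large fitted change (SNORD15, SNORD17), and of U3. They were taken from GENCODE M21 (GRCm38, the genome release behind mm10). Capitals mark TGATGA, the core of the C box, where it began within the first 20 bases, and CTGA, the D box, within the last 12 bases.
Snord14a: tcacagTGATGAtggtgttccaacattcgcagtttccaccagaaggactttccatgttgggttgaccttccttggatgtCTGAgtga
Snord14c: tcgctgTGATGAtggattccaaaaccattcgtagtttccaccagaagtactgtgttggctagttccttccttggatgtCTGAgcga
Snord14d: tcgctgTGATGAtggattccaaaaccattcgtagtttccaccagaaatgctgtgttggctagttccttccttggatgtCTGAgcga
Snord14e: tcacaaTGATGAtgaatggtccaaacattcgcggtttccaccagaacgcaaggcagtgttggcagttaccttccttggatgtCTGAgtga
Snord50a: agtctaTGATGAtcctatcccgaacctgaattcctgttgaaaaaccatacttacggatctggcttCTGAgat
Snord50b: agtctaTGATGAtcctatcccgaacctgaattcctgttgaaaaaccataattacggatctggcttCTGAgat
Snord99: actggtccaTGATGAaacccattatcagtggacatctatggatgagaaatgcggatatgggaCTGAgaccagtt
Snord57: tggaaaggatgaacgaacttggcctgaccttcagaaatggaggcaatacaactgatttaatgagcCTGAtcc
Snord23: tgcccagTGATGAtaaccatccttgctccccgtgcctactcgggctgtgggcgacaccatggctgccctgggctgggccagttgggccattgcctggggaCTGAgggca
Snord15a: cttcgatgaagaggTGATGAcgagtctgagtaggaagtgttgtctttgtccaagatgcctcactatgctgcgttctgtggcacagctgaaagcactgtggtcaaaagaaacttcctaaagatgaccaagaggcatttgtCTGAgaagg
Snord15b: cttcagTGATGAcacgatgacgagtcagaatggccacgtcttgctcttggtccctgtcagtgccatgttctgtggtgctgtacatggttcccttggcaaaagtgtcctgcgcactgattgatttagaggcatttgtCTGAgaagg
Snord17: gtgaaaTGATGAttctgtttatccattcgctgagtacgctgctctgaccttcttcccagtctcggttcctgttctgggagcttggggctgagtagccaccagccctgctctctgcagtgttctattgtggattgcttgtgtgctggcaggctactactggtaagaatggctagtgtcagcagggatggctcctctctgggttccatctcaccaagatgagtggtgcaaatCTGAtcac
Rnu3a: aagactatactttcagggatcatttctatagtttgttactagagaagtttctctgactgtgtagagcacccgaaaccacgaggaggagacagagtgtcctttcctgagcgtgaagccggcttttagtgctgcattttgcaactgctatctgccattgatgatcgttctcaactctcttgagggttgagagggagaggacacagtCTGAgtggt
In Snord57 and Rnu3a only the D box lay in its window.

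Snord14a (chr7:116333171-116333257, minus strand) overlaps an exon of Rps13, a ribosomal protein gene, and Snord14c, Snord14d and Snord14e (chr9:40803583-40804837, plus strand) lie in introns of Hspa8, the gene of the constitutive HSC70 chaperone. Snord50a and Snord50b (chr9:88521529-88521868, minus strand) lie in introns of the snoRNA host gene Snhg5. Over their 72 bases they differ by 1 substitution, C50A, and Snord14c and Snord14d differ by G47A and A49G over 86 bases (positions from the 5′ end, the base of the gene named first given first). Tags from the shared stretches cannot be assigned to a single gene. Snord15a and Snord15b (chr7:99479563-99482932, minus strand) lie in introns of Rps3, Snord23 (chr7:15938762-15938870, minus strand) in an intron of Nop53, Snord57 (chr2:130278016-130278087, plus strand) in an intron of Nop56, and Snord17 (chr2:144265979-144266216, minus strand) in an intron of Snx5. Snord99 (chr4:132310691-132310764, plus strand) overlaps an exon of Snhg12, and Rnu3a (chr10:40258467-40258679, plus strand) lies outside any host gene. The other genes matched to U3 (Rnu3b1, Rnu3b2, Rnu3b3 and Rnu3b4), not printed here, lie in introns of Tex14. The context is that of GENCODE transcripts other than those with a retained intron.

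By gene symbol, 74 of the 141 families matched 94 annotated genes, of which 72 lie in an intron and 15 overlap an exon of a host gene on the same strand, while 7 have no such host. The 59 matched SNORD genes were 64 to 238 bases long (median 78) and 28.8% to 65.1% GC, and the 22 matched SNORA genes were 121 to 205 bases long (median 137) and 33.3% to 62.2% GC. TGATGA and CTGA in these windows were both found in 37 of the 59 SNORD genes (62.7%), in 0 of the 22 SNORA genes, and in 19.3% of all 1558 annotated snoRNA and Cajal body RNA genes. Both motifs were searched on the RNA strand; on the opposite strand the pair was found in 0 of the 1558. ACA within the last 6 bases, the H/ACA tail, was found in 19 of the 22 SNORA genes and in 46.5% of all annotated genes, or 8.67% on the opposite strand.

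Libraries held 18127265 to 20895432 tags, of which 38829 to 71737 were snoRNA tags, so that 3 tags correspond to 0.144 to 0.165 RPM. These floors cover counting error only. The smooth muscle miRNA miR-143-3p stood at 5108 to 9155 RPM in untreated and 2549 to 3924 in ET1 libraries, with no overlap, and miR-145a-5p overlapped at 718 to 1164 and 610 to 788. Markers of other cells were present as well, and several moved with the groups. Endothelial miR-126a-3p was at 317 to 680 in untreated and 29.1 to 46.9 in ET1 libraries, lymphocyte miR-150-5p at 79.1 to 108.3 and 5.51 to 8.77, red cell miR-486a-5p at 32 to 69.8 and 119 to 305, and germ cell miR-449a-5p at 10.1 to 19.0 and 20.4 to 106. Red cell miR-451a was at 11.2 to 194 and gonadal miR-202-3p at 163 to 448 over all libraries, with the groups overlapping. Blood cell miR-142a-3p, taken with miR-150-5p as a lymphocyte marker, was sparse. It was at 0 to 0.290 in untreated and 0.410 to 0.721 in ET1 libraries, with no overlap and opposite in direction to miR-150-5p. The other germ cell marker, miR-34c-5p, overlapped between the groups, at 6.18 to 20.5 in untreated and 11.5 to 35.1 in ET1 libraries. SNORD115, known from neurons, had 0 to 4 tags in a library. Known miRNAs held 30.1% to 45.6% of the tags of untreated and 22.6% to 25.5% of those of ET1 libraries. The part of these shifts in the results on snoRNAs was not tested. Fewer cells of a type and less RNA per cell cannot be told apart in such samples.

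Families named SNORD (C/D box) made up most snoRNA tags in both groups. SNORD14 was first by summed tags in ET1 libraries and SNORD62 in untreated ones, where untreated library 3 held 16407 of its 25315 tags. In untreated libraries 1 and 2 SNORD62 had 4186 and 4722 tags, and SNORD14 had 4617 and 4583. No family passed the test of ET1 against untreated cells across all rows tested. The families with the smallest p were SNORD58, SNORD105, SNORD15, SNORD17 and SNORD26. Each had all ET1 libraries above all untreated ones, a separation that choosing by p favours and that 11.7% of all rows tested showed. SNORD105 and SNORD17 entered the test only through ET1 libraries. Summed snoRNA tags stood at 1858, 2232 and 3466 RPM in untreated libraries 1, 2 and 3, and 3289, 2969 and 3087 in ET1 libraries 1, 2 and 3. The means were 2518 ± 841 and 3115 ± 162 (SD, n = 3 each), a ratio of 1.24 that lies within the spread, with untreated library 3 the highest of all 6 (exact permutation p = 0.4, two-sided; adjusted over 9 shares 0.51). The difference of means was 267 RPM without untreated library 1 and 1070.1 RPM without untreated library 3. The smallest p that 3 libraries against 3 can give is 0.1. SNORD62 alone stood at 793 RPM in untreated library 3. Without SNORD62, an alternative chosen after its values were seen, the groups did not overlap and the difference of means was 759 RPM in place of 597 (exact p = 0.1). Among tags outside known miRNAs the difference was 84.4 RPM of those tags (exact p = 0.9).

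**Figure D1:**
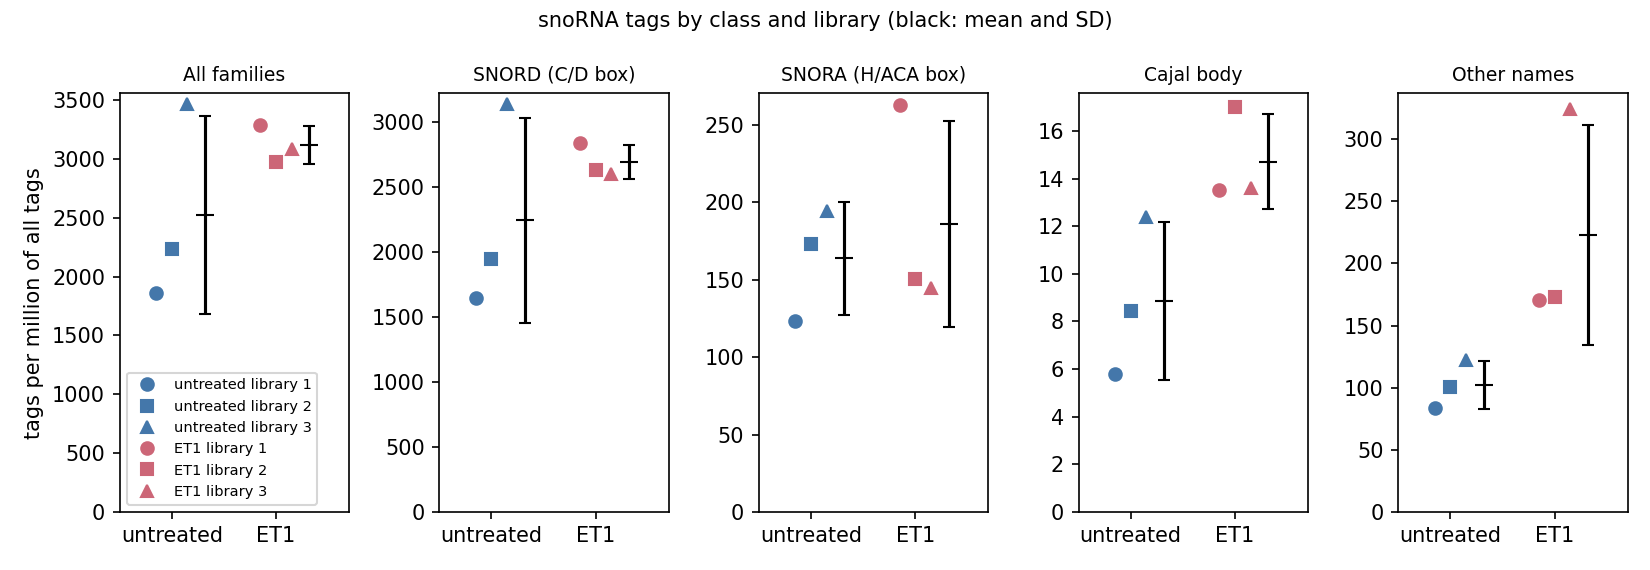
RPM for all 141 snoRNA families and for each class (panels), by library (points, with a marker shape per library number) and group; black bars give mean and SD of 3 libraries. In the Cajal body and other-name panels every ET1 library lies above every untreated library, while the groups overlap in the other panels.

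SNORD families supplied most of the snoRNA tags in every library, 88.8% ± 1.6 in untreated and 86.4% ± 2.09 in ET1 libraries (SD, n = 3 each, exact permutation p = 0.3). They were grouped by row name, which leaves U3 and U13 (matched to the gene Snord13) among the other names, though their genes carry the D box. Without U3, an alternative chosen after its values were seen, the difference of these shares was −0.66 percentage points in place of −2.36 (exact p = 0.4). SNORA families supplied 6.68% ± 1.08 and 5.92% ± 1.81 (exact p = 0.6). Their level was 164 ± 36.3 RPM in untreated and 186 ± 66.8 in ET1 libraries (exact p = 0.8), with 263 in ET1 library 1 against 150 and 145 in the other two; without that library the difference of means of 22.2 became −16.3. Cajal body RNAs were grouped by row name, which leaves U89 and U85 (matched to the gene Scarna10) among the other names. U89 alone held 61 to 63 tags in untreated and 104 to 364 in ET1 libraries. The 11 rows named as Cajal body RNAs held few tags, 121 to 330 in a library. They stood at 5.79, 8.43 and 12.4 RPM in untreated and at 13.5, 17 and 13.6 in ET1 libraries, with no overlap (means 8.86 ± 3.31 and 14.7 ± 1.99; exact p = 0.1, adjusted 0.23). Their part of the snoRNA tags was 0.349% ± 0.0339 and 0.475% ± 0.0860 (exact p = 0.1). The families with other names stood at 102 ± 19.3 RPM in untreated and 223 ± 88.2 in ET1 libraries, also with no overlap (exact p = 0.1, adjusted 0.23), but without U3, an alternative chosen after its values were seen, the difference of means was 49.0 in place of 121 (exact p = 0.2). Without ET1 library 3 it was 69.6.

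Tags were concentrated in few families. The 10 families with the most tags held 66.5% to 74.1% of the snoRNA tags of a library. These ranks are of tags and were not corrected for the length or the number of the genes in a family. SNORD14, which covers U14, a guide and processing factor of the small ribosomal subunit RNA, was first with 14.6% of the snoRNA tags of all 6 libraries. That rank pools the groups. Untreated libraries held 25315 SNORD62 tags, 16407 of them in untreated library 3, and 16208 SNORD14 tags, while ET1 libraries held 14295 and 31980. SNORD14 stood at 221, 242 and 339 RPM in untreated and at 471, 759 and 447 in ET1 libraries. All 3 ET1 libraries lay above the untreated ones, with a ratio of means of 2.09 on this scale and a fitted log2 fold change of 0.76 (SE 0.42; edgeR adjusted p = 0.79), or 0.23 without ET1 library 2. SNORD50, a guide of the large subunit RNA whose 2 mouse genes are nearly identical, also showed no overlap, at 154, 134 and 185 in untreated and 250, 276 and 308 RPM in ET1 libraries (fitted change 0.45 in log2, SE 0.34; edgeR adjusted p = 0.96; 0.26 without ET1 library 2). Fitted fold changes are smaller than these ratios because they are relative to the tags of the rows fitted, scaled by the trimmed mean (TMM), not to all tags. This effective library size was 9.35%, 9.57% and 12.6% of all tags in untreated libraries 1, 2 and 3. In ET1 libraries 1, 2 and 3 it was 15.5%, 11.2% and 14.55%. With library sizes alone (all tags of a library, without TMM) the median log2 fold change of all rows tested moved from 0.021 to 0.41. That of the snoRNA families moved from 0.028 to 0.39.

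The remaining families of the first 10 overlapped between groups. SNORD62, a guide of the small subunit RNA, stood at 200, 249 and 793 RPM in untreated and at 300, 126 and 329 in ET1 libraries (log2 fold change −1.05, SE 0.53; edgeR adjusted p = 0.77; −0.41 without untreated library 3). SNORD99 lay between 160 and 260 in untreated and between 195 and 319 in ET1 libraries, and its fitted change of −0.11 became 0.29 with library sizes alone. SNORD57, hosted by the nucleolar protein gene Nop56, lay between 131 and 196 and between 176 and 279. SNORD23 was at 179, 126 and 272 and at 133, 83.5 and 180 RPM (log2 fold change −0.92, SE 0.39; edgeR adjusted p = 0.65). SNORD20 (120 to 237 and 56.5 to 188), SNORD43 (94.2 to 157 and 52.1 to 174) and SNORD24 (63.8 to 98.0 and 60.1 to 106) showed no more than their spread, with fitted changes of −0.83, −0.75 and −0.27. U3, the RNA that base-pairs with the ribosomal precursor during its first cleavages, was at 36.4, 35.6 and 24.3 RPM in untreated and 79.7, 29.3 and 202 RPM in ET1 libraries. ET1 library 3 was high and ET1 library 2 lay among the untreated libraries (log2 fold change 1.18, SE 0.68; edgeR adjusted p = 0.80). Leaving out ET1 library 3 gave 0.30.

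**Figure D2:**
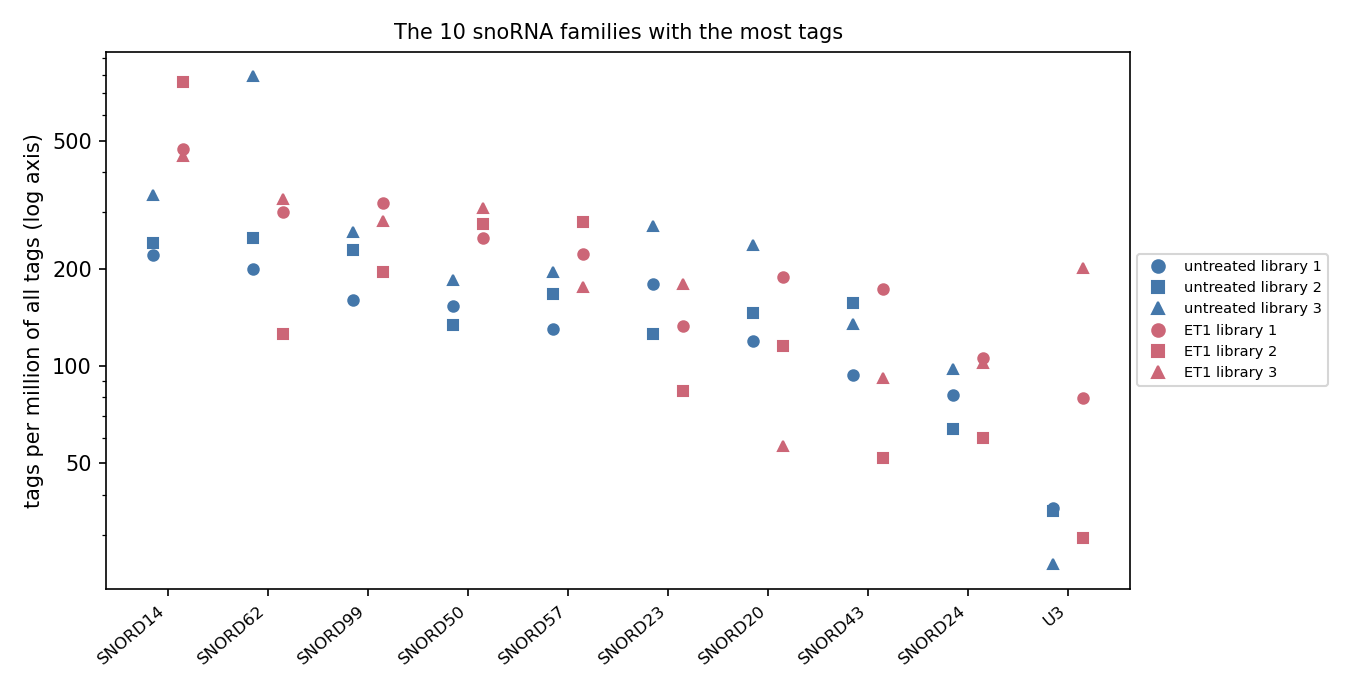
RPM (log axis) for the 10 snoRNA families with the most tags, with untreated libraries in blue and ET1 libraries in red and a marker shape per library number. SNORD14 and SNORD50 show no overlap between groups, and SNORD62 is highest in untreated library 3 at 793.

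None of the snoRNA families passed the test. edgeR was fitted on the 2579 rows other than known miRNAs that passed the filter on low counts, of which 124 were snoRNA families; the other 17 families were too sparse to enter. At an adjusted p of 0.05, 0 families were called higher and 0 lower, as were 0 of all rows tested (0% in each direction). At an unadjusted p under 0.05, 10 families (8.06% of 124) were higher in ET1 libraries against 3.37% of all rows tested, and 0 were lower against 4.34%. Of the 10, 5 reached the minimum of the count filter in all 6 libraries (SNORD58, SNORD15, SNORD26, SNORD47 and U89). The other 5 (SNORD105, SNORD17, SNORD81, SNORA62/SNORA6 and SNORA23) reached it in all ET1 libraries but in 0 to 2 untreated ones. Of the 11 families that entered in this way, 5 had such a p. Entry through the group where a family is high favours a difference in that direction without forcing it, so the count of 10 is a description. Without ET1 library 2 there were 4 higher families, without untreated library 1 there were 5 and without untreated library 2 there were 6. In these fits 213 of 3288, 261 of 3212 and 225 of 3273 rows had such a p in either direction. With DESeq2, 5 of 124 families were called, all higher, beside 111 of all 2579 rows tested (4.3%). The median log2 fold change of the families was 0.028, beside 0.021 for all rows tested, with 68 of 124 positive (54.8%, against 50.8% of all rows tested) and 56 negative. With library sizes alone 90 were positive and 34 negative.

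**Figure D3:**
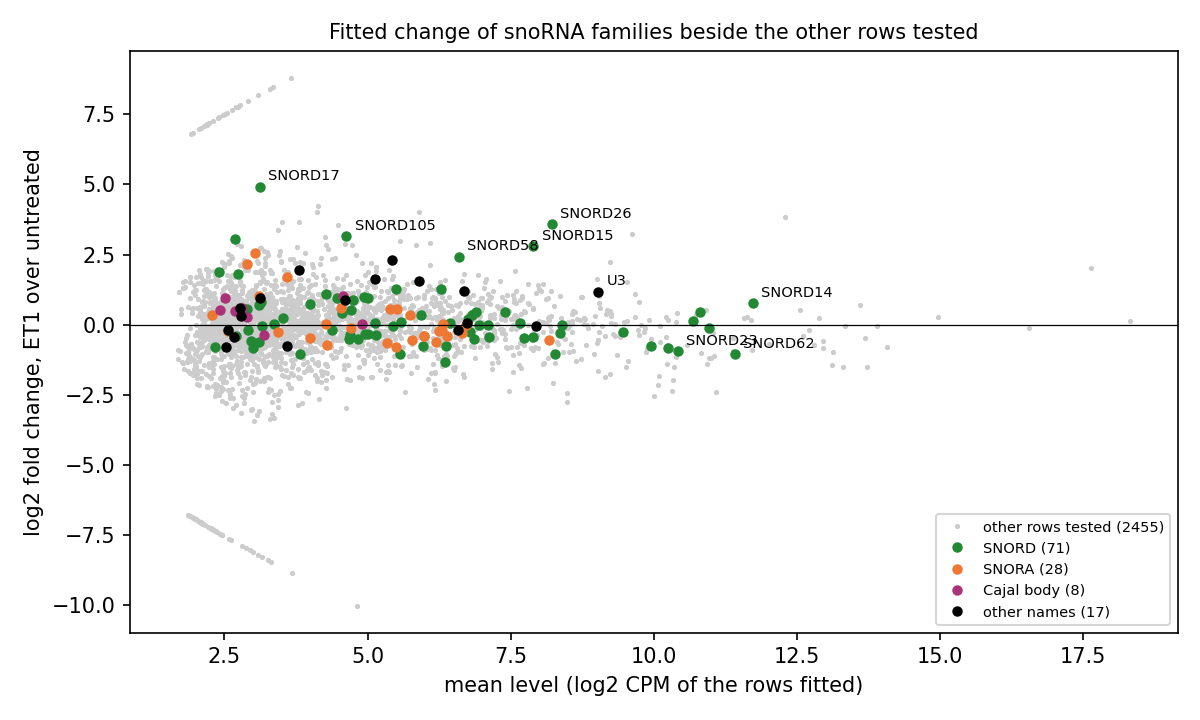
Fitted log2 fold change (ET1 over untreated) against the mean level in log2 CPM of the rows fitted, for the 124 snoRNA families tested (coloured by class) and the other rows tested (grey). Most families lie near 0, and SNORD17, SNORD26, SNORD105, SNORD15 and SNORD58 lie highest among the labelled families.

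The 5 families with the smallest p among those with a positive change were SNORD58, SNORD105, SNORD15, SNORD17 and SNORD26, the same 5 that DESeq2 called. All are C/D box guides of ribosomal RNA. SNORD26, from the host gene Snhg1, stood at 2.01, 4.32 and 8.94 RPM in untreated and at 15.7, 141 and 41.9 in ET1 libraries. ET1 library 2 was by far the highest, and the lowest ET1 library was above the highest untreated one (log2 fold change 3.57, SE 1.03; edgeR adjusted p = 0.31; DESeq2 adjusted p = 0.0066). SNORD15 was at 3.69, 5.69 and 9.95 in untreated and at 20.4, 83.4 and 53.9 RPM in ET1 libraries (log2 fold change 2.80, SE 0.72; edgeR adjusted p = 0.28; DESeq2 adjusted p = 0.0043). SNORD58 was at 2.01, 2.95 and 4.69 and at 11.1, 28.4 and 23.2 RPM (log2 fold change 2.43, SE 0.59; edgeR adjusted p = 0.28; DESeq2 adjusted p = 0.0032). In each of the 3 families ET1 library 1 was the lowest of its group and ET1 library 2 the highest.

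SNORD105 was sparser, at 0.383, 0.369 and 0.773 RPM in untreated and 1.6, 7.78 and 7.18 in ET1 libraries (log2 fold change 3.17, SE 0.79; edgeR adjusted p = 0.28; DESeq2 adjusted p = 0.0076). SNORD17 was nearly absent from untreated libraries, with 1, 0 and 2 tags, against 11, 70 and 27 tags after ET1. The ratio of its pooled shares was 38.2, with an exact 95% interval of 12.7 to 188 that covers counting error only. SNORD17 reached the minimum of the count filter in no untreated library and entered the test only through ET1 libraries, so its test is not independent of that choice. The same order of ET1 libraries, with library 1 lowest and library 2 highest, was seen in both. With 1 library left out edgeR called none of the 5, and their log2 fold changes stayed above 0, from 1.91 at the lowest for SNORD58 to 5.60 at the highest for SNORD17; SNORD26 ran from 2.04 (without ET1 library 2) to 4.06.

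The other 5 families with an unadjusted p under 0.05 were SNORD81, SNORD47, SNORA62/SNORA6, U89 and SNORA23, named after their values were seen. SNORD47 was at 2.01, 3.32 and 2.71 RPM in untreated and 5.79, 9.89 and 8.93 in ET1 libraries, and U89, a Cajal body RNA by its usual classification, at 3.02, 3.22 and 2.995 and at 5.74, 18.7 and 8.52. The groups did not overlap for either family (edgeR adjusted p = 0.62 and 0.65). The fragments of the small ribosomal subunit RNA, the RNA that is modified and cleaved with the help of many of these guides, were ordered alike in the ET1 libraries. They made up 0.758%, 0.560% and 1.28% of all tags in untreated and 2.02%, 5.47% and 5.21% in ET1 libraries. Their part in the snoRNA values was not tested.

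**Figure D4:**
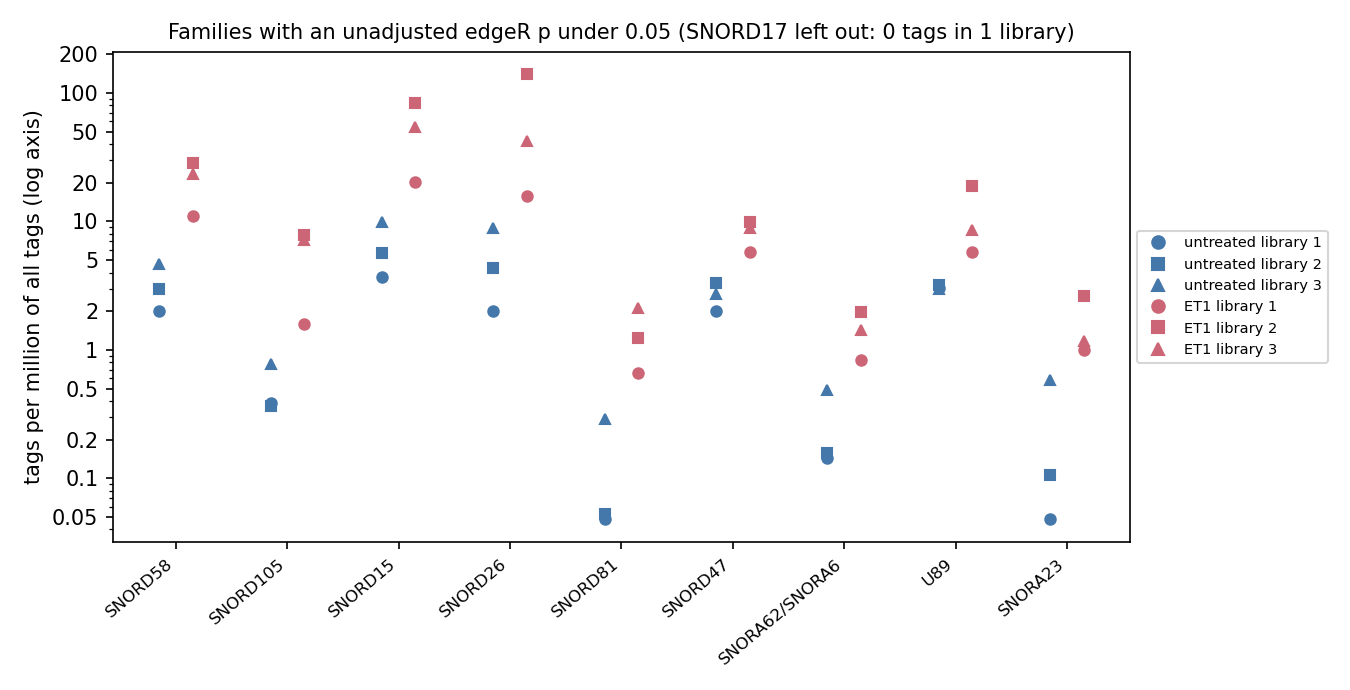
RPM (log axis) by library for 9 of the 10 families with an unadjusted edgeR p under 0.05; SNORD17 is left out because untreated library 2 held 0 of its tags. In each family all 3 ET1 libraries (red) lie above all 3 untreated libraries (blue).

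No family had a negative fitted change with an unadjusted p under 0.05. The 5 with the smallest p were SNORD23, SNORD62, SNORD93, SNORD123 and SNORA47. SNORD93 was at 4.59, 10.1 and 4.30 RPM in untreated and 5.08, 3.66 and 3.95 in ET1 libraries, so that untreated library 2 alone stood apart (log2 fold change −1.03, SE 0.54; edgeR adjusted p = 0.78; −0.45 without that library). SNORD123, hosted by the non-coding gene Snhg18, was at 17.6, 31.7 and 92.1 and at 44.7, 15 and 27 (log2 fold change −1.04, SE 0.61; edgeR adjusted p = 0.82; −0.34 without untreated library 3). Like SNORD62, it was highest in untreated library 3. SNORA47 was at 3.83, 7.27 and 6.52 and at 3.53, 4.33 and 5.28 RPM (log2 fold change −0.79, SE 0.47; edgeR adjusted p = 0.83). In all 5 the groups overlapped.

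Counted over all 141 families, 38 had each ET1 library above each untreated library in RPM, and 0 had each below. Of the 124 tested, 34 (27.4%) were higher without overlap against 11.7% of all rows tested, and 0 were lower against 5.66%. The 34 include all 11 families that reached the minimum of the count filter in all ET1 but not all untreated libraries. Another 11 families reached it in all untreated but not all ET1 libraries. The count of 34 is therefore a description. After TMM scaling 23 of 124 (18.5%) were higher against 6.59%, and 5 (4.03%) were lower against 10.2%. The 38 comprised 22 SNORD, 7 SNORA, 3 Cajal body and 6 other families. Their highest value was in ET1 library 2 for 19, in ET1 library 3 for 15 and in ET1 library 1 for 4. Their lowest was in untreated library 1 for 29, in untreated library 2 for 8 and in untreated library 3 for 1. Over all 141 families the highest value fell in ET1 library 1 for 47 and in untreated library 3 for 20, and the lowest in untreated library 1 for 76. Among the 80 families with at least 300 tags, the highest library of a group exceeded the lowest by a median of 2.02-fold in untreated and 2.03-fold in ET1 libraries. The spread in untreated libraries was widest for SNORD86 (14.2-fold), and that in ET1 libraries was narrowest for SNORA73 (1.03-fold).

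Families were also described by role. All 5 processing snoRNAs in the table, SNORD14, U3, U13, SNORD22 and SNORA73, had positive fitted log2 fold changes, with a median of 0.76, and 0 passed. Among all rows tested 50.8% were positive, with a median of 0.021. The changes of SNORD22 (0.048, SE 0.47) and SNORA73 (0.0040, SE 0.40) were far below their SE. SNORA73 was at 7.90, 11.8 and 13.5 RPM in untreated and at 14.3, 14 and 14.4 in ET1 libraries. These groups did not overlap on this scale, yet the fitted change was 0.0040 and its sign changed in DESeq2 and without a filter. SNORD22, the U22 RNA needed for small subunit maturation, overlapped between groups at 7.96 to 9.52 and 7.73 to 20.03 RPM. U13 was at 1.91, 0.685 and 2.75 and at 10.3, 1.44 and 1.90, with ET1 library 1 alone high. Of the 6 families hosted by Gas5, a non-coding gene that responds to growth arrest, 4 were positive and 2 negative (median 0.41). Its most abundant family, SNORD74, was at 12.8, 14.1 and 17.6 RPM in untreated and at 28.1, 27.5 and 23.2 in ET1 libraries, with no overlap (log2 fold change 0.46, SE 0.40; edgeR adjusted p = 0.99; 0.22 without ET1 library 2). SNORD81 was at 0.0479, 0.0527 and 0.290 and at 0.662, 1.24 and 2.10, with 1 tag each in untreated libraries 1 and 2, under the 3-tag floor. SNORD78, SNORD75 and SNORD44 overlapped.

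Of the 6 families hosted by Snhg1, 5 were tested, with 4 positive and 1 negative (median 0.11). SNORD26 stood far above the rest in fitted change, while SNORD28 was at 19.9, 32.7 and 22.9 RPM in untreated and 31.8, 22.4 and 18.6 in ET1 libraries. Of the 2 families hosted by the ribosomal protein gene Rpl13a, SNORD35 was at 3.30, 4.16 and 4.78 and at 5.63, 2.63 and 4.51, and the joint SNORD32 and SNORD33 family at 1.77, 2.32 and 2.13 and at 3.59, 5.36 and 7.03 RPM. Of the imprinted families, the SNORD113 and SNORD114 family of the Dlk1-Dio3 region had 24, 41 and 50 tags in untreated and 56, 0 and 17 in ET1 libraries, and SNORD64 overlapped too. The median over these 2 was −0.93, and neither passed (edgeR adjusted p = 0.99 for both).

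Among H/ACA families the joint SNORA42 and SNORA80 family had the most tags, at 31.3, 42.8 and 30.3 RPM in untreated and 45.8, 31.7 and 18.3 in ET1 libraries (log2 fold change −0.54, SE 0.50; edgeR adjusted p = 0.99; −0.23 without ET1 library 3). SNORA18 was at 7.80, 14.7 and 11.5 and at 25.5, 6.28 and 6.51, with ET1 library 1 alone high, and the sign of its fitted change (−0.31) turned without ET1 library 3 (0.022). Of 28 SNORA families tested, 12 were positive and 16 negative (median −0.21), and with unadjusted p under 0.05 only SNORA62/SNORA6 and SNORA23 were higher. SNORA62/SNORA6 was at 0.144, 0.158 and 0.483 and at 0.827, 1.96 and 1.44 RPM, and SNORA23 at 0.0479, 0.105 and 0.580 and at 0.993, 2.63 and 1.18. In untreated libraries 1 and 2 both stood at or below the 3-tag floor.

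Of the 8 families named as Cajal body RNAs that were tested, 7 were positive and 1 negative (median 0.50), and 0 passed. Among all rows tested 50.8% were positive (median 0.021). SCARNA7, a guide for U1, was at 0.957, 1.58 and 2.37 RPM in untreated and 2.87, 6.49 and 2.41 in ET1 libraries, a narrow separation with no overlap (log2 fold change 1.02, SE 0.65; edgeR adjusted p = 0.88; 0.16 without ET1 library 2). SCARNA8, a guide for U2 and the most abundant of the 11 rows grouped by name as Cajal body RNAs, which leave out U89, was at 2.30, 3.16 and 3.62 and at 3.86, 5.15 and 2.41, with overlap. SCARNA6 was at 0.335, 0.633 and 2.22 and at 0.883, 0.670 and 1.44. The sign of the fitted change of SCARNA8 (0.014) turned in several alternatives, and that of SCARNA6 (−0.37) without untreated library 3 (0.49).

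**Figure D5:**
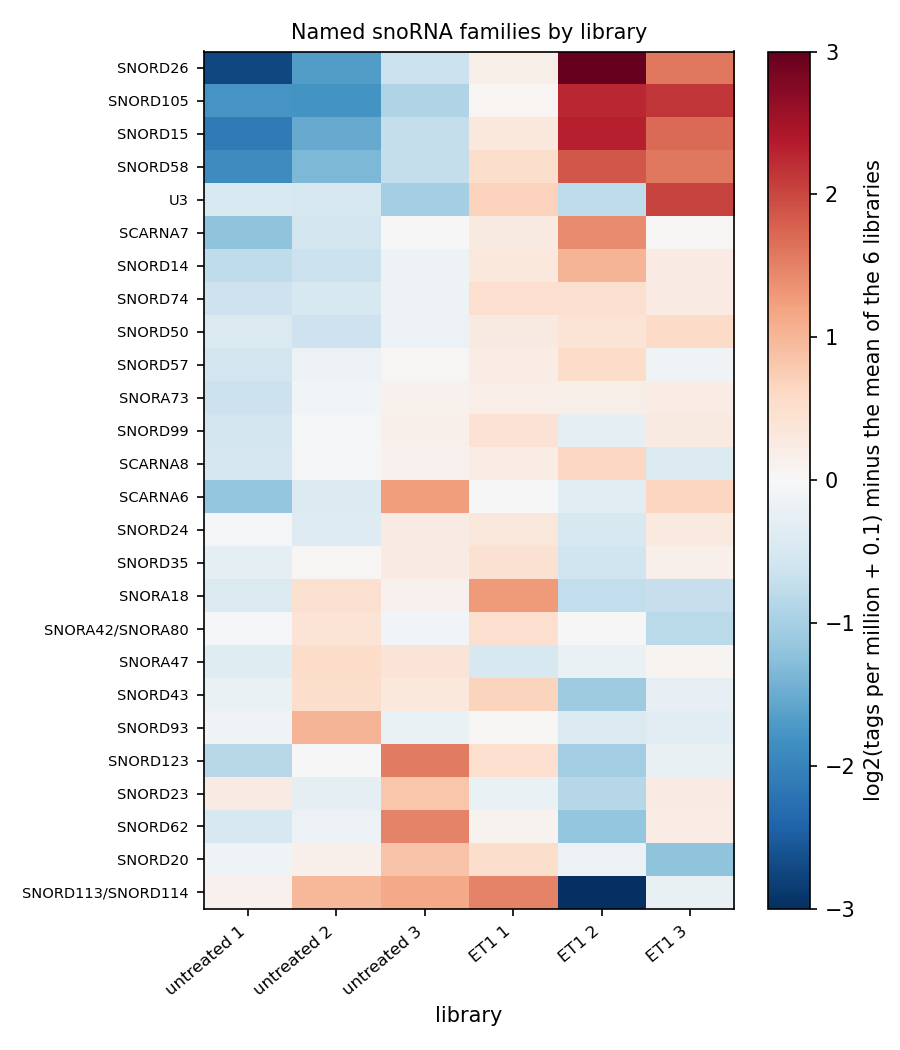
Levels of 26 named snoRNA families (rows) in the 6 libraries (columns), as log2 of RPM plus 0.1 minus the mean of the 6 libraries; red is above and blue below that mean, and colours end at 3 either way. SNORD26, SNORD105, SNORD15 and SNORD58 are above their mean mainly in ET1 libraries 2 and 3, and SNORD62 and SNORD123 in untreated library 3.

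Ribosomal RNAs, spliceosomal RNAs and the RNase P and RNase MRP RNAs were read from the same fit. The RNAs that these guides act on are among them, but not every row is such a target. Of the 4 ribosomal RNAs (5S, 5.8S, small and large subunit) and of 5 spliceosomal RNAs tested, 0 passed. The small subunit RNA had a log2 fold change of 2.02 (SE 0.51; edgeR adjusted p = 0.28), and the large subunit RNA had 0.28 (SE 0.49). U6 was at 249, 331 and 278 RPM in untreated and at 182, 149 and 172 in ET1 libraries, with no overlap (log2 fold change −1.18, SE 0.35; edgeR adjusted p = 0.32). U1 was at 56.5, 88.2 and 107.1 and at 31.5, 23.4 and 49.2, also with no overlap (log2 fold change −1.66, SE 0.42; edgeR adjusted p = 0.28). U2, U4 and U6atac overlapped. RNase P and RNase MRP had log2 fold changes of 0.44 and 0.42, and neither passed (edgeR adjusted p = 0.99 for both).

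At the lower edge of the rule, the last families inside it included sR24 with 32 tags over the 6 libraries, SNORD12/SNORD106 and SNORD29 with 31 each, and SCARNA11 with 30. The first outside included SNORA66 with 29, sR3 with 28, SNORA65 with 27 and sR60 with 26. SNORD29, from Snhg1, had 1, 2 and 1 tags in untreated and 3, 13 and 11 in ET1 libraries, and was too sparse to enter the test.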

How the data were processed

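The authors deposited raw counts of tags per row for 6 small RNA libraries, per the file headers. The submitters' processing notes name the aligner Bowtie2 and the mouse build mm10. How multi-mapping tags and Rfam families were handled is not given in the sources used here, so counts of near-identical genes are uncertain. The 4 rows of totals (exon, intron, intergenic, repeat) and known miRNAs entered no main fit. Levels are RPM computed from the counts. Group differences came from edgeR 4.0.16 under R 4.3.3 (TMM, default filter with the group, robust quasi-likelihood fit, two-sided, Benjamini-Hochberg over the 2579 rows tested, threshold 0.05), and shares by exact permutation. DESeq2 1.42.0, other scalings and filters, a replicate block and leaving out 1 library were alternatives. Replicates of a group differed beyond sampling noise (chi-square over degrees of freedom from 17.1 to 98.05).

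The families and lists were chosen with earlier results of these data known. Named families were the 10 most abundant, the 3 most abundant of each class, the 5 with the smallest p in each direction and the most abundant of each list; others were named after their values were seen. The authors' deposited miRNA comparison table was not used here.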

Additional observations from a re-analysis of the deposited data

How the results depend on the processing

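edgeR called 0 families in every alternative that used it except without a filter. There it called 2 of 141 families, SNORD15 and SNORD26, beside 34 of all 19323 rows (0.176%). DESeq2 called 5 of 124 families, beside 111 of all 2579 rows (4.3%). At an unadjusted p under 0.05, 10 families were higher and 0 lower with all libraries. The count of higher families was 22 with library sizes alone, 18 with all rows fitted together, 18 in DESeq2, 5 with the replicate block and 4 to 13 with 1 library left out. That of lower families was 2 in DESeq2, 4 without a filter and 0 to 2 with 1 library left out. Over all rows, such a p in either direction held for 199 of 2579 in the main fit and 219 with library sizes alone. It held for 333 of 3193 with all rows fitted together, 285 of 2579 in DESeq2 and 120 of 2579 with the replicate block. It held for 1333 of 19323 rows without a filter and 213 to 282 rows with 1 library left out. The lowest count of higher families, 4, was without ET1 library 2; it was 5 without untreated library 1 and 6 without untreated library 2. The median log2 fold change was 0.39 with library sizes alone, 0.21 with all rows fitted together, −0.079 without a filter and −0.10 to 0.23 with 1 library left out.

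Shares kept their direction except among tags outside known miRNAs, where the difference was −30.02 RPM for SNORD and −19.8 for SNORA families, and for SNORA families with 1 library left out (−16.3 to 43.0). The replicate numbers did not pair the libraries: correlations of deviations from the group means were 0.089, −0.088 and 0.0076 for equal numbers, and up to 0.21 for unequal ones.

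Of 27 named families 19 kept their sign in all alternatives. With library sizes alone the sign turned for SNORD99 (0.29), SNORD24 (0.14), SNORA18 (0.17) and SNORD35 (0.060), and with all rows fitted together for SNORD99 (0.081). SCARNA8 turned with the library scaled to snoRNA tags (−0.0026), without a filter (−0.065) and with the replicate block (−0.098), and SNORA73 in DESeq2 (−0.0093) and without a filter (−0.11). With 1 library left out, ranges crossed 0 for SCARNA8 (−0.52 to 0.31), SNORA73 (−0.18 to 0.12), SCARNA6 (−0.76 to 0.49), SNORD57 (−0.29 to 0.34) and SNORA18 (−1.13 to 0.022). The cause was not tested. Depth limits the sparse families: 17 of the 141 did not enter the test.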

Other observations

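Several families stood high in a single library, as values chosen after they were seen. SNORD86 was at 2.39 and 4.90 RPM in untreated libraries 1 and 2, at 33.9 in untreated library 3, and at 8.99, 2.06 and 9.08 in ET1 libraries. SNORD67 was at 3.45, 4.43 and 18.8 in untreated and 7.06, 5.72 and 5.95 in ET1 libraries, so that untreated library 3 was high as it was for SNORD62 and SNORD123. The family named for a snoRNA of the fungus Aspergillus fumigatus (Afu_294) held 657 tags, at 1.68, 1.27 and 1.35 RPM in untreated and 1.27, 4.02 and 24.1 in ET1 libraries, with ET1 library 3 high as it was for U3. A family named for trypanosomatids held 32 tags. Which mouse or other sequences these tags came from was not tested.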
